A study of Mus musculus with 9 samples.

Results

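The cytosolic ribosome translates messenger RNA into protein, and its large and small subunits are each built from ribosomal RNA and a fixed set of proteins. The genes for these proteins are scattered over the genome and are among the most highly expressed of any cell. Their transcripts begin with a short run of pyrimidines, the 5' terminal oligopyrimidine (TOP) tract, through which the kinase complex mTORC1 and the RNA-binding protein Larp1 control their translation and stability. Here they were followed in cultured mouse bone marrow-derived macrophages, phagocytes of the innate immune system. Ribosomal protein genes were taken as the symbols that begin with Rpl or Rps and a digit, plus Rplp0, Rplp1, Rplp2 and Rpsa. Of 110 symbols that matched, 14 pseudogenes and 10 ribosomal S6 kinase genes were left out. This left 86 of the 22001 genes in the count table, 52 named for the large subunit and 34 for the small one. They comprise 77 core ribosomal proteins and 9 paralogs, retrogenes or partners (Rpl3l, Rpl7l1, Rpl10l, Rpl22l1, Rpl36al, Rpl39l, Rps27l, Rps27rt and Rps19bp1, whose product binds the Rps19 protein). Of the 86, 83 passed the filter on low counts, among 11469 genes tested. Rpl10l had no count in any library, so its level lay below 3 counts per library in each, and Rpl3l and Rpl39l had at most 5 and 22 counts in a library.

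Bulk RNA sequencing was done on 9 libraries of macrophages from C57BL6 mice, 3 per group, all after 6 h. The first group received Pam3CSK4 at 100 µg/ml together with 3SL at 100 µl/ml, the second Pam3CSK4 at 100 µg/ml, and the third was untreated and received PBS. Pam3CSK4 is a synthetic bacterial-type lipopeptide that activates Toll-like receptor 2, and 3SL is taken from the series title as 3'-sialyllactose, a sialylated milk sugar whose dose is given only as a volume. The treatment tag of the 3SL libraries reads Pamc4-CSL, and their descriptions, which name Pam3CSK4 and 3SL, were followed. The age and sex of the mice are not given in the sources used here. Nothing says that a group's libraries stem from separate animals or cultures. The p-values therefore reflect spread among these samples alone, and that spread may be technical. The codes are A2plus, B2plus and C2plus for 3SL, D1, D2 and D3 for Pam3CSK4, and A2, B2 and C2 for untreated. The Pam3CSK4 libraries alone carry the letter D, so whatever the letter stands for cannot be told apart from that group.

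The inflammatory genes went against the labels. Il1b, the gene of the cytokine interleukin-1 beta that Toll-like receptor ligands induce, averaged 8136 ± 565 CPM in the 3SL-labelled libraries, 6.23 ± 1.68 in the Pam3CSK4-labelled libraries, and 10160.1 ± 457 in the untreated-labelled libraries (SD, n = 3 each). Tnf followed the same order with 1267 ± 58.2 CPM in the 3SL-labelled libraries, 18.4 ± 0.67 in the Pam3CSK4-labelled libraries, and 1704 ± 46 in the untreated-labelled libraries. The groups are therefore called 3SL-labelled, Pam3CSK4-labelled and untreated-labelled throughout, and each direction below is a direction between labels. Macrophage markers were abundant in all libraries: the summed level of 12 macrophage markers was 24327 to 25082 CPM in the 3SL-labelled, 19285 to 19731 CPM in the Pam3CSK4-labelled and 25107 to 25702 CPM in the untreated-labelled libraries. The 12 markers of neutrophils and their precursors summed to 242 to 260.2 CPM in the 3SL-labelled, 259 to 315 CPM in the Pam3CSK4-labelled and 278 to 282 CPM in the untreated-labelled libraries. Dendritic cell, lymphocyte and stromal markers each summed to under 14 CPM in every library, and erythroid markers to 0.306 CPM at most, with 2 of the 5 erythroid markers at 0 throughout. The part of these differences in the results was not tested, and in bulk samples fewer cells of a type and less RNA per cell cannot be told apart.

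Before the values, the sequences around a few gene starts show what the family shares and where members differ. Of the 83 tested genes and the 3 others, 66 matched RefSeq promoter windows (78 windows of 300 bases, 250 before and 50 after the start, build GRCm38.p6), out of 32851 windows of all genes. The longest run of C and T touching the 50 bases on either side of the start was at least 10 bases long in 65.4% of ribosomal protein windows, against 19.7% of all windows, with medians of 10 and 7 bases. The first set below holds the 3 genes that kept a lower value in the Pam3CSK4-labelled libraries under every scaling tried. Capitals mark the longest pyrimidine run, and each line gives 30 bases 5' to 3' on the gene's strand (chr16:55966227-55966256, plus strand for Rpl24, chr17:46782671-46782700, minus strand for Rpl7l1, and chr7:3704024-3704053, plus strand for Rps9).
Rpl24: acctcaaacccaCTCCCCgccaatgctgta
Rpl7l1: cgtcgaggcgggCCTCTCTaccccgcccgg
Rps9: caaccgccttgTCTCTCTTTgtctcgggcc
The second set holds, for comparison, the most highly counted gene Rpl4 (chr9:64173405-64173434, plus strand), Rps7, which was lower in the 3SL-labelled than the Pam3CSK4-labelled libraries under every scaling tried (chr12:28635911-28635940, minus strand), Rps12, the only one lower in the 3SL-labelled than the untreated-labelled libraries under every scaling (chr10:23787182-23787211, minus strand), and Rpl7a, whose run is the longest of those printed (chr2:26910788-26910817, plus strand).
Rpl4: gagcgtggCCTTCTCCTCTCCCCgtcatgg
Rps7: ctgtccccaCCTCTTTTCTTCCgccacccg
Rps12: ccaccgccggCCTTTTCCCCTgccgccgcc
Rpl7a: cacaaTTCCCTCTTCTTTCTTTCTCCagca
The runs of Rpl24, Rpl7l1 and Rps9 were 6, 7 and 9 bases long and began at -36, -32 and -6 from the start. Those of Rpl4, Rps7, Rps12 and Rpl7a were 15, 13, 11 and 21 bases long and began at 27, 23, 9 and -14. Runs as short occurred in other members, among them Rps3 (6 bases), Rplp0 (7 bases) and Rpl23 (6 bases). With TMM Rps3 and Rplp0 were not called in Pam3CSK4-labelled over untreated-labelled libraries. Rpl23 fell there (log2 change -0.12, edgeR adjusted p = 0.00357), as did Rpl7a with its long run. These genes were picked with their changes known, so the lengths are a description only, and a run in a RefSeq window is not a mapped transcript start.

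Several other short strings searched in the same windows also differed in frequency between the family and all windows. All windows include those of genes at any level, and windows of genes at a similar level were not compared. CGGAAG, the core of ETS-factor sites, lay on either strand in 60.3% of ribosomal protein windows, against 16.9% of all windows. TCTCGCGA was present on either strand in 15.4% of them, against 0.995% of all windows, and AAGATGGC, a string found in YY1 sites, in 10.3%, against 2.75%. CTTTCC on the sense strand, which can lie within a pyrimidine run, was found in 38.5%, against 14.1%, whereas TATAAA on either strand was found in 8.97%, against 13.6%. These are 5 of 14 strings searched, several of which overlap, and a match is a string, not a bound site.

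Ribosomal protein genes took up between 1.26% and 1.55% of all counts in a library (the plot of shares by library). With the raw total as the denominator the share was highest in the Pam3CSK4-labelled libraries. The 3SL-labelled libraries gave 1.29%, 1.37% and 1.26% in A2plus, B2plus and C2plus, the Pam3CSK4-labelled libraries 1.55%, 1.54% and 1.55% in D1, D2 and D3, and the untreated-labelled libraries 1.36%, 1.39% and 1.29% in A2, B2 and C2. The means were 1.30 ± 0.055% in the 3SL-labelled, 1.55 ± 0.010% in the Pam3CSK4-labelled and 1.35 ± 0.051% in the untreated-labelled libraries (SD, n = 3 each), and the Pam3CSK4-labelled libraries did not overlap with either other group. Against the TMM-scaled library size, which allows for the composition of the RNA, the order of the means was another. They were 1.38 ± 0.060% in the 3SL-labelled, 1.35 ± 0.0077% in the Pam3CSK4-labelled and 1.46 ± 0.062% in the untreated-labelled libraries, and the Pam3CSK4-labelled libraries lay within the range of the 3SL-labelled ones and below all untreated-labelled ones. The TMM factors were 0.944 to 0.953 in the 3SL-labelled, 1.14 to 1.15 in the Pam3CSK4-labelled and 0.916 to 0.926 in the untreated-labelled libraries. The counts of large-subunit genes over those of small-subunit genes were 1.26 ± 0.0014 in the 3SL-labelled, 1.25 ± 0.010 in the Pam3CSK4-labelled and 1.25 ± 0.0048 in the untreated-labelled libraries.

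**Figure D1:**
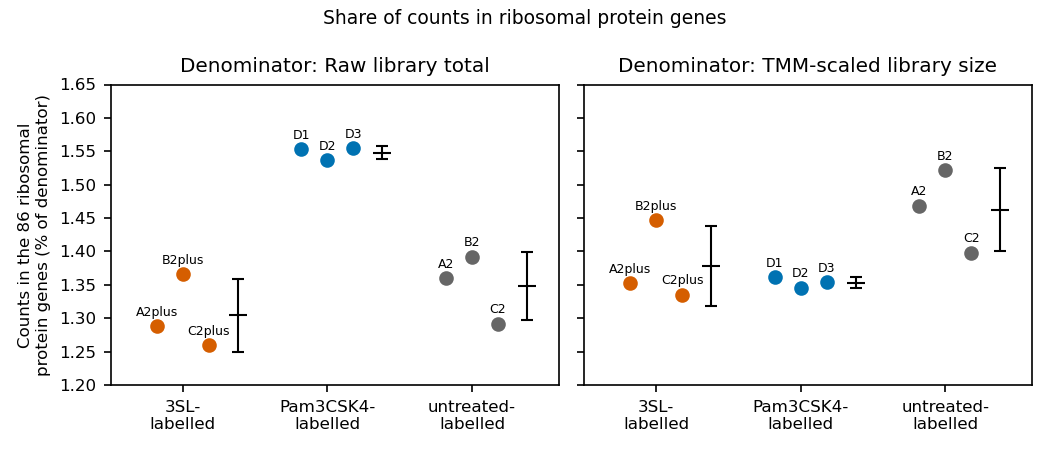
Share of counts in the 86 ribosomal protein genes in each of 9 libraries, in percent, by group; the left panel divides by the raw total and the right by the TMM-scaled library size, points are libraries and bars mean ± SD (n = 3). The Pam3CSK4-labelled libraries are highest on the left (1.55%) and lowest by mean on the right (1.35%).

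Levels differed far more between genes than between groups. Per kilobase of exon, over all 9 libraries, the median gene had 127 CPM, the highest was Rplp1 with 939 CPM and the lowest of those tested was Rpl17 with 6.43 CPM. Rplp1 and Rplp0 encode proteins of the stalk that recruits elongation factors, and Rplp0 stood at 392 CPM per kilobase. Rpl4 and Rpl8, both of the large subunit core, had 527 and 499.5 CPM per kilobase, and the small-subunit genes Rps3 and Rps9 288 and 272. At the low end Rpl23a had 18.8 and Rpl15 21.2 CPM per kilobase. These genes have many near-identical pseudogenes, and the median gene had 64.9% of its 50-base words in no other annotated transcript (range 8.92% to 100%), so levels of single genes can be split between copies in ways that are not given. The 14 pseudogenes left out, known by their symbols, took 0.0029% to 0.0039% of counts in a library. Other annotated genes that share words with the family carry other names and are not in that figure. How reads matching several copies were counted is not given, and it bears on the family's share of counts too. Across the 83 genes, Spearman's rho between that share and the level per kilobase was -0.13, and with the log2 change between Pam3CSK4-labelled and untreated-labelled libraries 0.09, as descriptions over genes that share libraries.

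In the Pam3CSK4-labelled against the untreated-labelled libraries, ribosomal protein genes moved little and, relative to the median gene, downward. With TMM scaling 43 of 83 (51.8%) fell and 0 rose by edgeR's quasi-likelihood test at an adjusted p of 0.05, whereas with library size only 65 rose and 3 fell. Over all 11469 genes tested, 39% rose and 35.9% fell with TMM, and 60% rose and 20.8% fell with library size only. The median log2 change of the 83 genes was -0.12 with TMM, against 0.03 for all genes, and 0.20 with library size only, against 0.34 for all genes. Relative to the median gene it was -0.14 under each of these scalings, and between -0.14 and -0.15 under all 5 tried (TMM, library size only, DESeq2 size factors, upper quartile, and the summed counts of the ribosomal protein genes themselves). A scaling shifts all genes of a comparison nearly alike, so this gap was bound to stay and the 5 values are not separate support. For comparison, the 4506 other genes with mean levels between the 5th and 95th percentile of the family (37.7 to 474 CPM) had a median of -0.14 with TMM, and 52.8% of them fell. Without B2, 23 ribosomal protein genes fell and 3 rose, and with the counts thinned to the smallest library 27 fell.

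**Figure D2:**
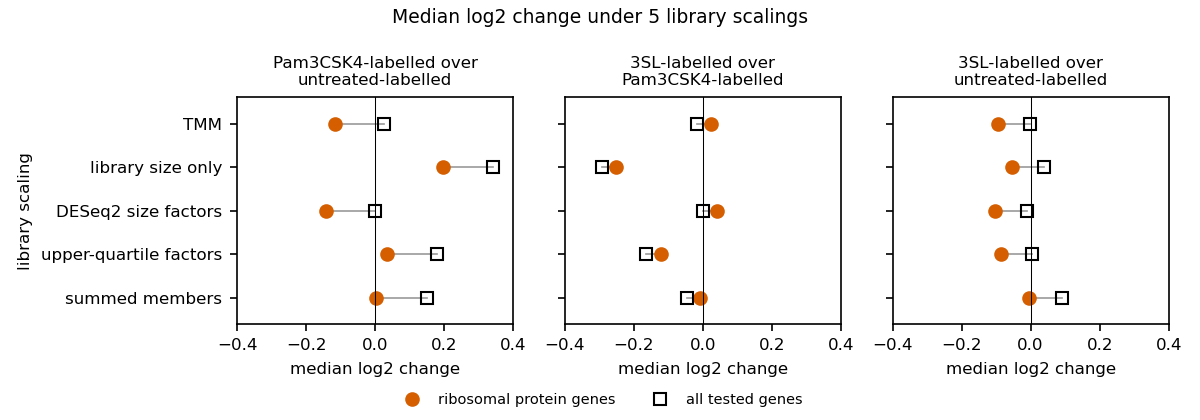
Median log2 change of the 83 tested ribosomal protein genes and of all 11469 tested genes in each comparison under 5 library scalings. The medians shift together: for Pam3CSK4-labelled over untreated-labelled libraries from -0.12 and 0.03 with TMM to 0.20 and 0.34 with library size only, so the gap between them keeps its size while the sign of the ribosomal protein median changes. A scaling shifts all genes of a comparison nearly alike, so the gap was bound to stay.

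Changes within the family were narrow. The interquartile range of the 83 log2 changes was 0.12, against 0.91 for all genes and 0.75 for the 4506 others of similar level. The full range with TMM was -0.56 to 0.09. With TMM none of the 83 changed by more than 2-fold, where 2751 of all genes (24%) did. Large-subunit genes had a median of -0.13 with TMM, of which 29 of 49 fell, and small-subunit genes -0.09, of which 14 of 34 fell; the difference of the medians was -0.04. The values of 42 of the 83 genes did not overlap between the groups, against 76% of all genes, and the 43 called genes compare with 75% of all genes called in either direction.

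**Figure D3:**
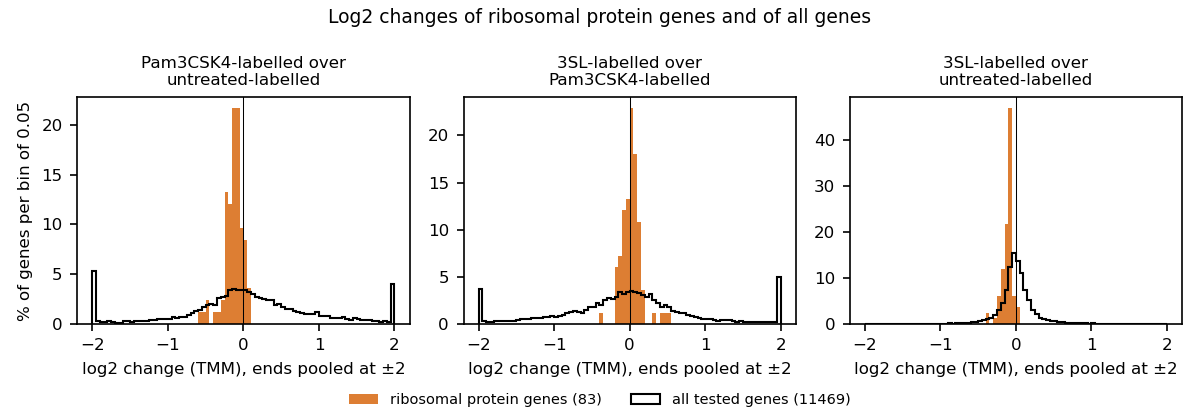
Distribution of TMM-scaled log2 changes in the 3 comparisons, for the 83 tested ribosomal protein genes and for all 11469 tested genes. The interquartile range is 0.12, 0.14 and 0.06 (log2) for the ribosomal protein genes, against 0.91, 0.88 and 0.19 for all genes. For the 4506 other genes of similar level, not drawn, it is 0.75, 0.71 and 0.13.

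A group of 3 genes fell in the Pam3CSK4-labelled libraries under all 5 scalings, and no ribosomal protein gene rose under all 5, where 20.8% of all tested genes fell and 37.6% rose under all 5. The scalings are not separate tests. Falling under all 5 amounted to being called lower with library size only, and each held for 2380 genes. Rpl24 encodes a large-subunit protein that forms a bridge to the small subunit (chr16:55966275-55971435, plus strand in GRCm38). It had 142, 153 and 148 CPM in the 3SL-labelled libraries, 110.5, 107 and 99.8 in the Pam3CSK4-labelled libraries, and 159, 158 and 151 in the untreated-labelled libraries. Every Pam3CSK4-labelled library lay below every library of the other groups, and Rpl24 was 1.48-fold lower than in the untreated-labelled libraries (log2 change -0.56, SE 0.043, edgeR adjusted p = 3.03e-12). With library size only its log2 change was -0.25 (edgeR adjusted p = 5.45e-06). Only 18.3% of its 50-base words are found in no other transcript, and the gene model Gm28037 overlaps it on the same strand, so its reads may be shared.

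Rpl7l1, a paralog of Rpl7 known in human cells as an assembly factor of the large subunit (chr17:46773907-46782672, minus strand), had 161, 165 and 150.1 CPM in the 3SL-labelled libraries, 116, 106 and 111 in the Pam3CSK4-labelled libraries, and 163, 163 and 161 in the untreated-labelled libraries. Again each library labelled Pam3CSK4 lay below all others (1.46-fold lower than untreated-labelled; log2 change -0.55, SE 0.042, edgeR adjusted p = 3.5e-12), and with library size only the log2 change was -0.24 (edgeR adjusted p = 1.33e-05). Its parent Rpl7 had 318 ± 3.4 CPM in the Pam3CSK4-labelled libraries, against 354 ± 13.8 in the untreated-labelled libraries. For Rpl7 the log2 change was -0.16, SE 0.039, edgeR adjusted p = 0.000746, and the change was 0.15 with library size only. Rps9, a small-subunit protein near the messenger RNA entry (chr7:3703993-3706897, plus strand), had 502, 525 and 500.0 CPM in the 3SL-labelled libraries, 392, 378 and 374 in the Pam3CSK4-labelled libraries, and 531, 561 and 512 in the untreated-labelled libraries. It was 1.41-fold lower in the Pam3CSK4-labelled libraries (log2 change -0.49, SE 0.035, edgeR adjusted p = 8.24e-13), and -0.18 with library size only. Unlike Rpl24, both have mostly unique sequence, with 92.6% and 87.6% of their 50-base words in no other transcript. Leaving out any single library kept all 3 called and lower.

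A gene's count per 1000 counts of the family does not depend on the library total. Rpl24 took 10.5, 10.6 and 11.1 per 1000 in the 3SL-labelled libraries, 8.12, 7.97 and 7.37 in the Pam3CSK4-labelled libraries, and 10.8, 10.4 and 10.8 in the untreated-labelled libraries. Rps9 took 37.1, 36.3 and 37.4 per 1000 in the 3SL-labelled, 28.8, 28.1 and 27.6 in the Pam3CSK4-labelled, and 36.2, 36.9 and 36.6 in the untreated-labelled libraries. In the other direction, Rps27l, a paralog of Rps27 known in humans as a target of p53, took 6.21, 6.59 and 6.57 per 1000 in the 3SL-labelled, 7.68, 7.51 and 7.5 in the Pam3CSK4-labelled, and 6.56, 6.62 and 6.34 in the untreated-labelled libraries. Within the family, then, Rpl24 and Rps9 took less and Rps27l more of the counts in each Pam3CSK4-labelled library than in any other.

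**Figure D4:**
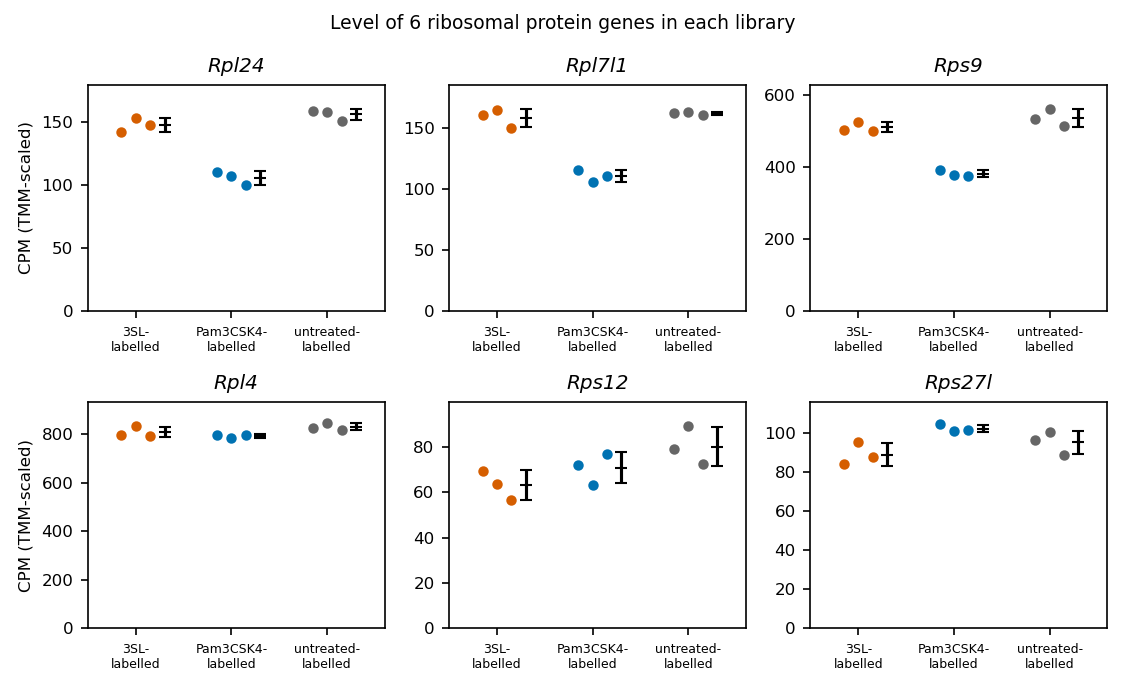
Level of 6 ribosomal protein genes in each of 9 libraries, in CPM against the TMM-scaled library size, by group; points are libraries and bars mean ± SD (n = 3). Rpl24, Rpl7l1 and Rps9 are lower in each Pam3CSK4-labelled library than in any other library, and remained lower under all 5 scalings, while the order of groups for genes such as Rpl4 depends on the scaling.

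Further genes fell with TMM but not with library size only. Rpl22l1, the paralog of Rpl22, which binds RNA and has roles in lymphocyte development, had 38.7, 33.4 and 33.5 CPM in the Pam3CSK4-labelled libraries, against 48.1, 53 and 40.8 in the untreated-labelled libraries. For Rpl22l1 the log2 change was -0.46, SE 0.075, edgeR adjusted p = 3.63e-06, and the change was -0.15 with library size only (edgeR adjusted p = 0.065). Under each other scaling Rpl22l1 was called lower as well. The edgeR adjusted p was 1.5e-06 with DESeq2 size factors, 0.000454 with upper-quartile factors and 0.000361 scaled to the summed family. Rpl22 itself had 172 ± 3.89 CPM in the Pam3CSK4-labelled libraries, against 169 ± 6.58 in the untreated-labelled libraries. For Rpl22 the log2 change was 0.01, SE 0.041, edgeR adjusted p = 0.756. Rpl7a, a large-subunit protein, had 51.4, 54.2 and 53.4 CPM in the Pam3CSK4-labelled libraries, against 68.3, 72.8 and 63 in the untreated-labelled libraries. For Rpl7a the log2 change was -0.38, SE 0.054, edgeR adjusted p = 4.69e-07. Rps6, the small-subunit protein phosphorylated by the S6 kinases, had 92.9, 93.3 and 98.8 CPM in the Pam3CSK4-labelled libraries, against 117, 130.4 and 105 in the untreated-labelled libraries. For Rps6 the log2 change was -0.33, SE 0.06, edgeR adjusted p = 1.81e-05. The groups did not overlap for any of these 3 falls, but 18.8% and 15.4% of the words of Rpl7a and Rps6 are unique, and with library size only their calls were lost. Among the 5 most highly counted genes, Rpl4 fell by 0.07 on the log2 scale (edgeR adjusted p = 0.0396) and Rpl8 by 0.12 (edgeR adjusted p = 0.00353) with TMM, and their log2 changes were 0.24 and 0.19 with library size only. Rplp0, a common housekeeping standard, and Rps3 had TMM log2 changes of -0.07 and -0.08 (edgeR adjusted p = 0.0649 and 0.0548), which were 0.24 and 0.24 with library size only, and the fifth, Rps9, is described above.

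**Figure D5:**
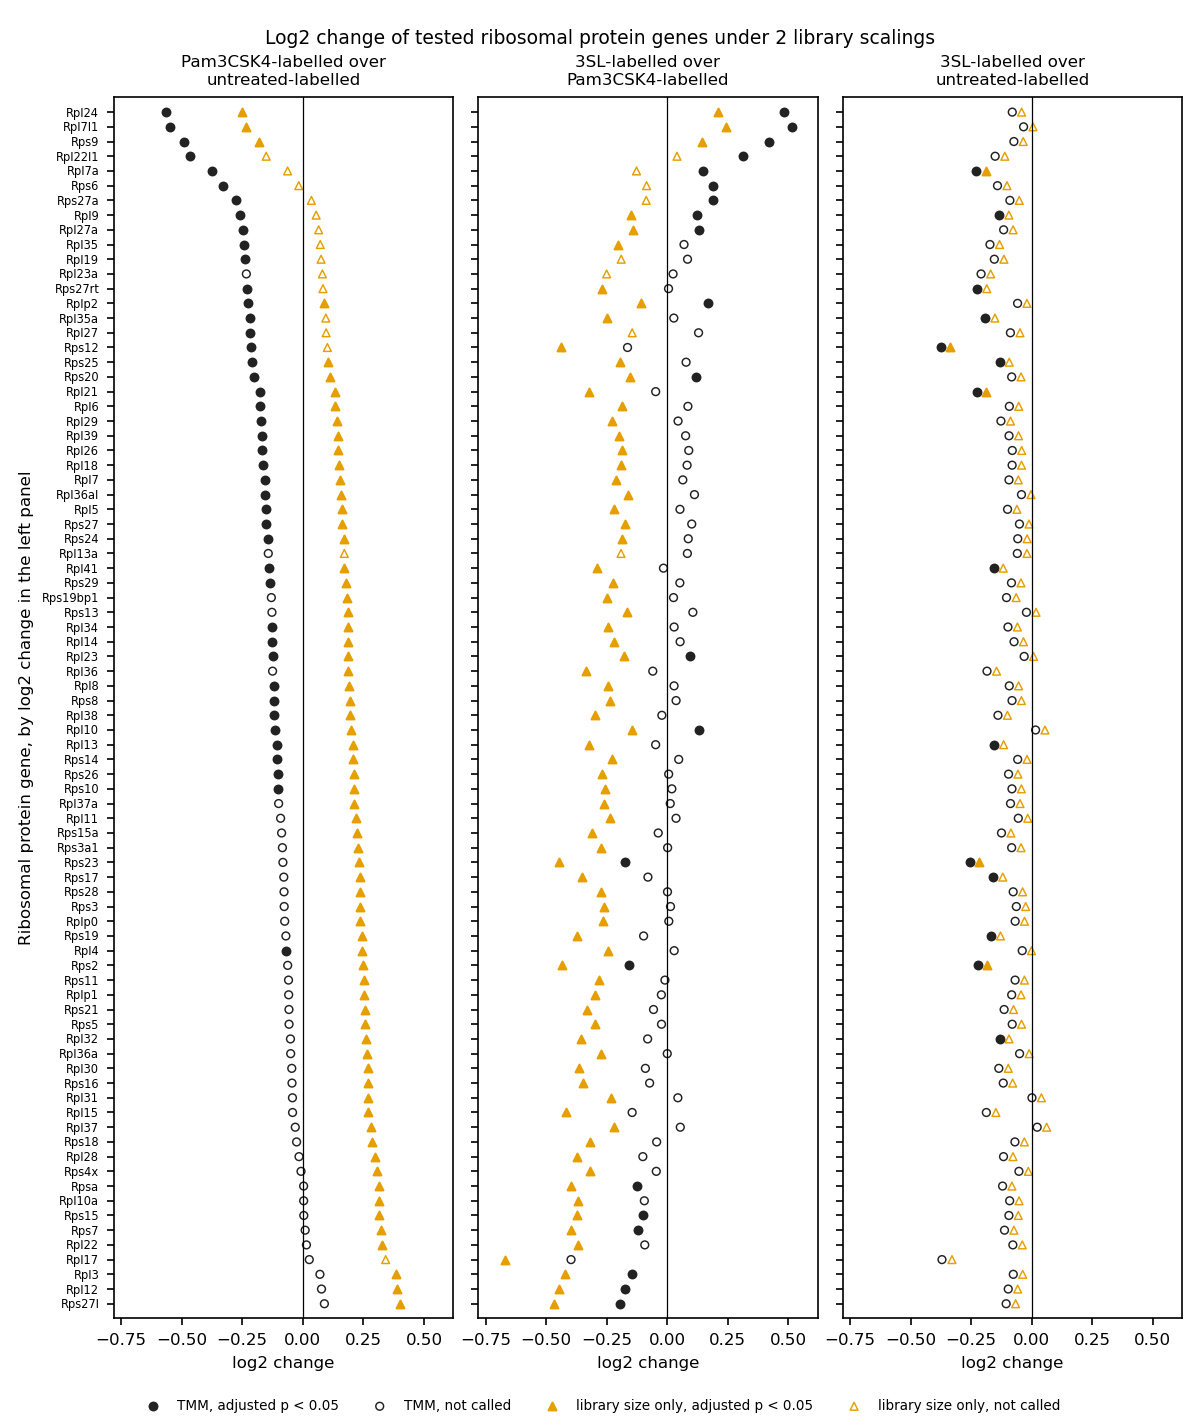
Log2 change of the tested ribosomal protein genes reported here in the 3 comparisons, 1 row per gene, with TMM scaling and with library size only. Changing the scaling moves the genes of a comparison together, from a median of -0.12 to 0.20 (log2) in Pam3CSK4-labelled over untreated-labelled libraries, and leaves Rpl24, Rpl7l1 and Rps9 below 0 on both.

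In the 3SL-labelled against the Pam3CSK4-labelled libraries, a comparison that shares the Pam3CSK4-labelled libraries with the previous one, 13 of 83 genes rose and 9 fell with TMM, while 34.7% of all tested genes rose and 36.8% fell (71.5% in either direction). With library size only 3 rose and 72 fell, against 21.2% and 55.7% of all genes. The median log2 change was 0.02 with TMM and -0.25 with library size only. Relative to the median gene it was 0.04 under all 5 scalings, a gap that a change of scaling leaves nearly fixed. The 4506 other genes of similar level had a median of 0.14 with TMM, above that of the family, and 51.7% of them rose and 30.8% fell. The interquartile range of the family's changes was 0.14, against 0.88 for all genes and 0.71 for the 4506 others of similar level. In the family 0 genes passed 2-fold, where 2647 of all genes did. The groups did not overlap for 29 of the 83 genes, against 73.1% of all genes. Without B2plus 7 genes rose and 14 fell, and the median relative to the median gene was 0.0048. Rpl7l1, Rpl24 and Rps9 rose under all 5 scalings, by TMM log2 changes of 0.52, 0.48 and 0.42 (edgeR adjusted p = 4.68e-11, 2.83e-10 and 4.86e-11), and 21.2% of all genes did so. Rpl22l1 (log2 change 0.31, SE 0.084, edgeR adjusted p = 0.00158), Rps6 (log2 change 0.19, SE 0.065, edgeR adjusted p = 0.0112) and Rps27a, which encodes a ubiquitin fusion, rose with TMM, and the values of Rps6 and Rps27a turned to -0.09 and -0.09 with library size only. Rpl22l1 was not called with library size only (log2 change 0.04, edgeR adjusted p = 0.669) or with upper-quartile factors (log2 change 0.17, edgeR adjusted p = 0.0684). Rps27a had 178, 195 and 168 CPM in the 3SL-labelled libraries, against 158, 157 and 161 in the Pam3CSK4-labelled libraries. For Rps27a the log2 change was 0.19, SE 0.046, edgeR adjusted p = 0.000744.

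Another 8 genes fell in this comparison under all 5 scalings, as 35.7% of all genes did. Rps27l was the largest fall of these, with 84, 95.4 and 87.7 CPM in the 3SL-labelled libraries, against 104, 101 and 101 in the Pam3CSK4-labelled libraries (log2 change -0.19, SE 0.053, edgeR adjusted p = 0.00178). Rpl12, part of the base of the stalk, had 121, 131 and 126 CPM in the 3SL-labelled libraries, against 141, 143 and 143 in the Pam3CSK4-labelled libraries. For Rpl12 the log2 change was -0.17, SE 0.048, edgeR adjusted p = 0.002. The groups did not overlap for either gene. Rpl3, which lies near the peptidyl transferase centre, and Rps2, of the messenger RNA entry, had TMM log2 changes of -0.15 and -0.16 (edgeR adjusted p = 0.00628 and 0.00721), and Rps7 had -0.12 (edgeR adjusted p = 0.0136). Rps23 and Rpsa, which also serves as a laminin receptor, had overlapping groups, with log2 changes of -0.17 and -0.12 (edgeR adjusted p = 0.0148 and 0.0128).

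Libraries labelled 3SL had slightly lower values than those labelled untreated. With TMM 14 of 83 (16.9%) fell and 0 rose, against 5.11% and 3.83% of all genes (8.94% in either direction), and with library size only 5 fell and 0 rose, against 3.54% and 6.87%. Of the 4506 other genes of similar level 7.75% fell with TMM. The median log2 change was -0.09 with TMM, against 0.00 for all genes, and relative to the median gene -0.06 without B2. Under all 5 scalings, which leave the gap to the median gene nearly fixed, that gap was between -0.09 and -0.10. Of the 83 values 80 were below 0 with TMM. Their interquartile range was 0.06, against 0.19 for all genes and 0.13 for the 4506 others of similar level. A median shift of this size is close to the spread between libraries, since the median level of the family varied between libraries of a group with an SD of 0.05 (log2). In the 6 libraries of this comparison the median deviation of the family from its mean over all libraries was -0.04, 0.04 and -0.07 in A2plus, B2plus and C2plus, and 0.07, 0.12 and -0.0014 in A2, B2 and C2, so the groups overlapped. The count of genes that fell ranged from 2 (without B2, or without A2plus) to 23 (without C2, or without B2plus), with 6 without A2 or without C2plus, and was 4 with the counts thinned to the smallest library.

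Rps12, a small-subunit protein, was the only gene lower under all 5 scalings, as 1.53% of all genes were. It lies at chr10:23785183-23787275, minus strand, and had 69.6, 63.7 and 56.4 CPM in the 3SL-labelled libraries, against 78.9, 89.2 and 72.3 in the untreated-labelled libraries. It was 1.3-fold lower (log2 change -0.38, SE 0.076, edgeR adjusted p = 0.00122). The groups did not overlap, and the Pam3CSK4-labelled libraries had 71.9, 63.4 and 77 CPM; 35.4% of its 50-base words are unique. Rps23, which lies at the decoding centre, had 51, 60.6 and 56.3 CPM in the 3SL-labelled libraries, against 69.4, 67.4 and 64.5 in the untreated-labelled libraries. For Rps23 the log2 change was -0.26, SE 0.061, edgeR adjusted p = 0.00599. Rpl7a had 58.7 ± 1.32 CPM in the 3SL-labelled libraries, against 68 ± 4.9 in the untreated-labelled libraries, and for Rpl7a the log2 change was -0.23, SE 0.057, edgeR adjusted p = 0.00834. Rpl21, of the large subunit, had 62.4 ± 3.2 CPM in the 3SL-labelled libraries, against 72.7 ± 3.03 in the untreated-labelled libraries, and for Rpl21 the log2 change was -0.23, SE 0.054, edgeR adjusted p = 0.00657. The groups did not overlap for these 3 genes. Over the family they did not overlap for 14 of 83, a smaller share than the 24% of all genes. Rps23, Rpl7a, Rpl21 and Rps2 were each called lower under 4 of the 5 scalings, all but the one to the summed family. Of all genes 3.54% were called lower under at least those same 4. Rps2 had 154, 170.1 and 143 CPM in the 3SL-labelled libraries, against 182, 190.2 and 169.8 in the untreated-labelled libraries, and the groups overlapped. For Rps2 the log2 change was -0.22, SE 0.051, edgeR adjusted p = 0.00416. Rps19, mutated in a human inherited anaemia, and the retrogene Rps27rt had log2 changes of -0.17 and -0.23 (edgeR adjusted p = 0.0218 and 0.0388), but only 8.92% of the words of Rps27rt are unique, the rest being shared chiefly with Rps27. Rpl24, Rpl7l1 and Rps9 did not pass the test in this comparison (log2 changes -0.08, -0.03 and -0.07; edgeR adjusted p = 0.299, 0.712 and 0.23).

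Paralogs and their parents can be set side by side, although near-identical sequence may move reads between them. Rpl36al had 61.8 ± 5.71 CPM in the 3SL-labelled libraries, 57.3 ± 1.23 in the Pam3CSK4-labelled libraries, and 63.4 ± 2.39 in the untreated-labelled libraries. Rpl36a had 54.9 ± 4.14 CPM in the 3SL-labelled libraries, 55.1 ± 1.64 in the Pam3CSK4-labelled libraries, and 56.3 ± 4.43 in the untreated-labelled libraries. Between Pam3CSK4-labelled and untreated-labelled libraries the log2 changes with TMM were -0.15 for Rpl36al (edgeR adjusted p = 0.0142) and -0.05 for Rpl36a (0.455), and both were above 0 with library size only. Rps27l had 0.09 with TMM (edgeR adjusted p = 0.0989) and 0.40 with library size only (edgeR adjusted p = 1.48e-08). Rps27 had -0.15 with TMM (edgeR adjusted p = 0.00526) and 0.16 with library size only. Rps19bp1, whose product binds Rps19 and, in humans, the deacetylase SIRT1, had 20.2 ± 1.16 CPM in the 3SL-labelled libraries, 19.8 ± 1.13 in the Pam3CSK4-labelled libraries, and 21.5 ± 0.458 in the untreated-labelled libraries. It was called in none of the 3 comparisons.

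Fau, which encodes the small-subunit protein eS30 fused to a ubiquitin-like protein, lies outside the naming rule. It had 204, 213 and 203 CPM in the 3SL-labelled libraries, 177, 176 and 178 in the Pam3CSK4-labelled libraries, and 220.1, 226 and 207 in the untreated-labelled libraries. It fell with TMM in the Pam3CSK4-labelled against the untreated-labelled libraries (log2 change -0.30, SE 0.038, edgeR adjusted p = 6.13e-08), with a value of 0.01 with library size only. Rack1, a scaffold protein bound to the small subunit, had 587 ± 13 CPM in the 3SL-labelled libraries, 579 ± 12.4 in the Pam3CSK4-labelled libraries, and 603 ± 22.8 in the untreated-labelled libraries. Its log2 change was -0.06 with TMM (edgeR adjusted p = 0.0914) and 0.25 with library size only.

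The wider translation machinery was read from the same fit. Among 34 genes listed as translation factors or TOP transcripts, 5 rose and 18 fell with TMM in Pam3CSK4-labelled over untreated-labelled libraries, and 21 rose and 5 fell with library size only. The median of the 34 was -0.13 with TMM, and whether each has a TOP tract was not checked. Over all tested genes 39% rose and 35.9% fell with TMM, and 60% rose and 20.8% fell with library size only, while 52.8% of the genes at the level of the ribosomal protein genes fell with TMM. Eif4g2, which encodes an initiation factor for cap-independent translation, had 3221 ± 49.3 CPM in the 3SL-labelled libraries, 1348 ± 24.5 in the Pam3CSK4-labelled libraries, and 3352 ± 70.3 in the untreated-labelled libraries. It was 2.49-fold lower in Pam3CSK4-labelled than untreated-labelled libraries (log2 change -1.31, SE 0.027, edgeR adjusted p = 1.79e-25). Eif4ebp1, an mTORC1 substrate that restrains initiation, had 81.4 ± 4.78 CPM in the 3SL-labelled libraries, 32.7 ± 2.71 in the Pam3CSK4-labelled libraries, and 82.7 ± 1.93 in the untreated-labelled libraries. It was 2.53-fold lower (log2 change -1.34, SE 0.057, edgeR adjusted p = 6.45e-18). These 2 changes exceed every change within the ribosomal protein genes. The elongation factor gene Eef1a1, the most abundant TOP transcript of the list, had 3284 ± 49 CPM in the 3SL-labelled libraries, 3183 ± 27 in the Pam3CSK4-labelled libraries, and 3532 ± 52.8 in the untreated-labelled libraries. Its log2 change was -0.15 with TMM (edgeR adjusted p = 4.2e-06) and 0.16 with library size only. Eef2 had a log2 change of -0.05 (edgeR adjusted p = 0.0859; 0.26 with library size only). In 3SL-labelled over untreated-labelled libraries 0 of the 34 rose and 3 fell, Eef1a1 among them (log2 change -0.11, SE 0.025, edgeR adjusted p = 0.00533). Of all tested genes 3.83% rose and 5.11% fell there with TMM.

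Genes of ribosome assembly were mixed. Of 45 ribosome biogenesis genes 20 rose and 11 fell with TMM in Pam3CSK4-labelled over untreated-labelled libraries, and 36 rose and 4 fell with library size only. Over all tested genes, the shares that rose and fell were 39% and 35.9% with TMM, and 60% and 20.8% with library size only. Nolc1, a nucleolar chaperone, had 60.8 ± 3.1 CPM in the 3SL-labelled libraries, 104 ± 6.64 in the Pam3CSK4-labelled libraries, and 58.1 ± 1.36 in the untreated-labelled libraries. For Nolc1 the log2 change was 0.84, SE 0.05, edgeR adjusted p = 1.64e-14. Eif6, which keeps immature large subunits from joining, had 165 ± 0.819 CPM in the 3SL-labelled libraries, 78.9 ± 2.29 in the Pam3CSK4-labelled libraries, and 172 ± 6.11 in the untreated-labelled libraries. For Eif6 the log2 change was -1.13, SE 0.041, edgeR adjusted p = 1.57e-19. Of 20 genes of RNA polymerase I, which transcribes ribosomal RNA, 8 rose and 4 fell with TMM, and 13 rose and 1 fell with library size only. The initiation factor gene Rrn3 had 82.6 ± 7.11 CPM in the 3SL-labelled libraries, 62.8 ± 3.32 in the Pam3CSK4-labelled libraries, and 81 ± 4.2 in the untreated-labelled libraries. For Rrn3 the log2 change was -0.38, SE 0.056, edgeR adjusted p = 7.35e-07. The subunit gene Cd3eap had 19.1, 19.3 and 16.6 CPM in the 3SL-labelled libraries, 28.2, 27.6 and 27.7 in the Pam3CSK4-labelled libraries, and 21.5, 19.9 and 18.7 in the untreated-labelled libraries. For Cd3eap the log2 change was 0.47, SE 0.074, edgeR adjusted p = 2.35e-06. Mitochondrial ribosomal protein genes numbered 77, of which 28 rose and 17 fell with TMM, and 58 rose and 4 fell with library size only. Of 11 mitochondrially encoded messenger RNAs 0 rose and 7 fell with TMM, and 7 rose and 0 fell with library size only, among them mt-Co1 with 5240.1 ± 44.1 CPM in the 3SL-labelled libraries, 4776 ± 226 in the Pam3CSK4-labelled libraries, and 5307 ± 258 in the untreated-labelled libraries.

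Among 23 mTORC1 and MYC regulators 10 rose and 9 fell with TMM in Pam3CSK4-labelled over untreated-labelled libraries, and 14 rose and 4 fell with library size only, where with TMM 39% of all genes rose and 35.9% fell. Larp1, which binds TOP transcripts, had 309 ± 3.87 CPM in the 3SL-labelled libraries, 172 ± 4.4 in the Pam3CSK4-labelled libraries, and 330.0 ± 8.24 in the untreated-labelled libraries. For Larp1 the log2 change was -0.94, SE 0.035, edgeR adjusted p = 3.28e-19. Myc, whose product drives transcription of ribosomal protein genes, had 43.6, 39 and 35.1 CPM in the 3SL-labelled libraries, 45.5, 36.7 and 52.3 in the Pam3CSK4-labelled libraries, and 35.1, 33.2 and 35.5 in the untreated-labelled libraries. For Myc the log2 change was 0.38, SE 0.088, edgeR adjusted p = 0.00044. Pim1, a kinase that acts with MYC, had 237 ± 6 CPM in the 3SL-labelled libraries, 26.3 ± 2.12 in the Pam3CSK4-labelled libraries, and 274 ± 9.42 in the untreated-labelled libraries. Pim1 was 10.4-fold lower in the Pam3CSK4-labelled than the untreated-labelled libraries (edgeR adjusted p = 1.74e-28). In 3SL-labelled over Pam3CSK4-labelled libraries Larp1 and Pim1 rose (0.85 and 3.17 on the log2 scale; edgeR adjusted p = 8.99e-18 and 1.83e-27), and Myc had -0.19 (edgeR adjusted p = 0.073). In the Pam3CSK4-labelled libraries, in which Rpl24, Rpl7l1 and Rps9 were low, cell type markers moved both ways against the untreated-labelled libraries. Of 12 macrophage markers 4 rose and 6 fell with TMM, with a median log2 change of -0.08; Adgre1 and Spi1 were 3.32- and 2.49-fold lower, and Mertk 1.99-fold higher. Of 11 tested markers of neutrophils and their precursors 7 rose and 3 fell, with a median of 0.33; Mpo and Elane were 2.12- and 2.19-fold higher, and Camp 2.05-fold lower. Their part in the result was not tested.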

How the data were processed

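The authors deposited 1 table of raw counts by gene, of which 15 further columns were not used. The submitters' processing notes name HISAT2 2.1.0, featureCounts, Subread and the human build hg38, while the gene identifiers are mouse; the sources used here give no counting parameters or strand setting, so overlapping and antisense genes cannot be told apart. Symbols were found for 21909 of 22001 identifiers, and 5264 genes had no count. Totals were 7472482 to 43980309 per library; 3 counts correspond to 0.068 to 0.401 CPM of raw total, and floors cover counting error only. Within groups, chi-square per degree of freedom was 1.85 to 3.01, which is above sampling noise for every pair.

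The test was that of edgeR 4.0.16 under R 4.3.3 (filterByExpr, TMM, 1 mean per group over all 9 libraries, quasi-likelihood test, Benjamini-Hochberg over 11469 genes, threshold 0.05). CPM are relative to the TMM-scaled library size; errors are SD over 3 libraries. The fit was checked on simulated data in which few genes changed, up and down alike. That check does not bear on the choice of scaling, since most genes were called here. Alternatives were other scalings, DESeq2 1.42.0, no low-count filter, only the groups compared, thinning, each library left out, a replicate block by letter and, chosen after seeing the data, scaling to the summed ribosomal protein counts and members with at least 50% unique words of 50 bases. Coordinates, exon lengths and words come from GENCODE M21 (GRCm38), promoter windows from RefSeq (GRCm38.p6). Genes named were, per comparison, the 6 largest rises and 6 largest falls among called members without overlap, the 5 highest by mean CPM, paralogs with their parents, and per list the 2 with the smallest p, besides Fau, Rack1, Myc, Larp1, Eef1a1, Eef2, Il1b and Tnf; Rpl15, Rpl17, Rpl23a, Rplp1 and Rpsa were added where a count or an extreme asked for them. Rpl23 was added for its short pyrimidine run. The members and lists were chosen with earlier results of these data known. Some genes are counted in the totals but not reported here by name.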

Additional observations from a re-analysis of the deposited data

How the results depend on the processing

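The sign of the family's median in both comparisons with the Pam3CSK4-labelled libraries depended on how libraries were scaled. In Pam3CSK4-labelled over untreated-labelled libraries, genes called higher and lower numbered 65 and 3 with library size only, 19 and 8 with upper-quartile factors and 10 and 9 when scaled to the summed family, with median log2 changes of 0.20, 0.035 and 0.0035. Over all tested genes the shares called higher and lower under these 3 scalings were 60% and 20.8%, 48.6% and 27.3%, and 45.1% and 27.5%. Thinning to the smallest library left 27 lower and no low-count filter 1 higher. In 3SL-labelled over Pam3CSK4-labelled libraries, 3 and 72 were called higher and lower with library size only and 3 and 45 with upper-quartile factors (medians -0.25 and -0.12), 7 and 12 when scaled to the summed family (median -0.0071), 8 and 18 without the low-count filter, and 5 were lower by DESeq2. Over all tested genes the shares under the first 3 of these were 21.2% and 55.7%, 26.9% and 46.9%, and 31.9% and 37.2%. In 3SL-labelled over untreated-labelled libraries 5 were lower with library size only, 1 when scaled to the summed family (median -0.0039, and below 0 under all 5 scalings), 24 without the low-count filter and 4 with thinned counts. Over all tested genes 3.54% were lower with library size only and 1.53% when scaled to the summed family. For the thinned, unfiltered and DESeq2 counts the share over all genes is not given here. The difference in the share of counts, Pam3CSK4-labelled minus untreated-labelled, was 0.20 percentage points of raw totals and -0.11 of TMM-scaled ones, and 3SL-labelled minus Pam3CSK4-labelled -0.24 and 0.025. The median relative to all genes kept its sign in all 3 comparisons under each alternative run, but was 0.0048 without B2plus in 3SL-labelled over Pam3CSK4-labelled libraries. For the other scalings this was fixed in advance, since they shift all genes of a comparison nearly alike.

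Leaving out 1 library at a time, the count called lower in Pam3CSK4-labelled over untreated-labelled libraries ran from 23 (without B2) to 52 and the count called higher from 0 to 3 (without B2); in 3SL-labelled over Pam3CSK4-labelled libraries from 6 to 14 lower and 7 to 18 higher (14 and 7 without B2plus); and in 3SL-labelled over untreated-labelled libraries from 2 to 23 lower. The median of 3SL-labelled over Pam3CSK4-labelled libraries ran from -0.016 to 0.043. The letters A, B and C showed no clear pairing of 3SL-labelled and untreated-labelled libraries. Deviations of same-letter libraries from their group means correlated at -0.017, 0.042 and 0.0080 over 11469 genes, and those of different letters at -0.033 to 0.023. Such weak correlations cannot tell whether libraries of a letter share an animal or culture. With the letter as a replicate block, 12 genes were lower and 0 higher in 3SL-labelled over untreated-labelled libraries, with a median of -0.09, and of the genes named only Rps27rt lost its call (edgeR adjusted p = 0.0606).

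Among single named genes, 2407 values were recomputed under an alternative; 99 lost and 52 gained the call, 50 changed sign with a call before or after, and the other 2206 kept direction and call or changed sign with no call on either side. Only sign changes with a call are listed next. With library size only the log2 changes of Pam3CSK4-labelled over untreated-labelled libraries became Eef1a1 0.16, Eef2 0.26, Fau 0.0085, mt-Co1 0.16, mt-Nd5 0.13, Rack1 0.25, Rpl36a 0.26, Rpl36al 0.16, Rpl4 0.24, Rpl7 0.15, Rpl8 0.19, Rplp0 0.24, Rps19bp1 0.18, Rps27 0.16, Rps27rt 0.083 and Rps3 0.24. In 3SL-labelled over Pam3CSK4-labelled libraries they became Eef1a1 -0.23, Eef2 -0.24, Fau -0.050, mt-Co1 -0.14, mt-Nd5 -0.16, Rack1 -0.25, Rpl36al -0.16, Rpl4 -0.25, Rpl7 -0.21, Rpl8 -0.25, Rplp0 -0.27, Rps19bp1 -0.25, Rps27 -0.17, Rps27a -0.087, Rps27rt -0.27, Rps3 -0.26 and Rps6 -0.086. With upper-quartile factors the first comparison gave Eef1a1 0.0021, Eef2 0.10, mt-Co1 0.00011, Rack1 0.091, Rpl4 0.084, Rpl8 0.031 and Rps27 0.00066, and the second Eef1a1 -0.10, Eef2 -0.12, mt-Co1 -0.012, mt-Nd5 -0.030, Rack1 -0.13, Rpl4 -0.12, Rpl8 -0.12, Rplp0 -0.14 and Rps3 -0.13. Scaled to the summed family, Rpl4 0.045 changed sign in the first comparison. Restricting to the 60 genes with at least 50% unique words gave medians of -0.12, 0.03 and -0.09. Depth limits single genes: at 7472482 counts in the smallest library, 3 counts are 0.401 CPM, and the median standard error of a log2 change was 0.045 to 0.048.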
